A study of Mus musculus with 6 samples.

Results

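The genes that encode the proteins of the cytosolic ribosome were followed through 4 libraries of tumour-associated macrophages (TAMs). Members were all gene symbols beginning with Rpl or Rps, Rplp included, without the Rps6k kinases and without symbols marked -ps, that had at least 100 reads summed over the 4 libraries. The rule found 88 symbols, and 82 of them, out of 24391 gene rows, reached the read minimum and are the members. They comprise 41 proteins of the large subunit, 31 of the small subunit, the 3 P-stalk proteins and 7 paralogs or other symbols. The last include Rps19bp1, which encodes no ribosomal protein, and the pseudogene Rpl37rt. Counts, shares and medians given for ribosomal protein genes cover all 82 members. All 82 also passed the filter on low counts that precedes the test.

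Colorectal tumours of BALB/C mice were the source of the macrophages, from animals either WT or CCL5-/-, the latter without the gene of the chemokine CCL5. The study asked how CCL5 shapes TAM expression. Read counts cover CD11bhiF4/80low cells (F4/80low), 2 libraries of each genotype. FPKM values, which scale fragments to transcript length and sequencing depth, cover CD11blowF4/80hi cells (F4/80hi), 1 library per genotype label. No age, tumour line or treatment is given, and nothing says whether libraries with different replicate numbers came from separate mice, so the p-values measure a spread that may be technical.

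Each ribosome has a large subunit, which joins amino acids, and a small subunit, which reads the message. The P-stalk of the large subunit recruits the elongation factors. Ribosomal protein mRNAs are short and abundant, and many begin with a C followed by an unbroken run of pyrimidines, the 5′ terminal oligopyrimidine (TOP) motif, through which mTOR signalling and the RNA-binding protein LARP1 govern their translation.

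The start sites of several members carry this motif in RefSeq's promoter table (GRCm38.p6), which matched 63 members with 74 annotated starts. A C at the start followed by at least 4 pyrimidines stood at 13 of these 74 starts (17.6%), at 2.5% of all 32851 starts in the table and at 0 of 74 starts of mitochondrial ribosomal protein genes. The 6 windows shown span 20 bases before and 10 bases from the start, 5′ to 3′ on the gene's strand, and capitals mark the pyrimidine run from the start. They were taken as 3 from the upper and 3 from the lower end of the difference between the replicates, described further on.
Rpl35 (chr2:39005122-39005151, minus strand): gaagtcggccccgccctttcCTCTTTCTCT
Rpl15 (chr14:18270977-18271006, minus strand): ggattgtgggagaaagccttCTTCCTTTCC
Rps15a (chr7:118116138-118116167, minus strand): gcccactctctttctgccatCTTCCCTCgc
Rps6 (chr4:86857358-86857387, minus strand): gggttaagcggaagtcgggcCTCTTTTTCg
Rpl14 (chr9:120571497-120571526, plus strand): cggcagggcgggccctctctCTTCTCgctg
Rpl28 (chr7:4792945-4792974, plus strand): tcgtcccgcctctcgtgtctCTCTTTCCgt

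A looser count, a run of at least 6 pyrimidines within 10 bases of the start, was met by 44.6% of the members' starts, 24.3% of the mitochondrial ribosomal protein starts and 20.2% of all starts. In the whole window of 250 bases before to 50 after each start, searched on both strands, CCGGAAG (the ETS-family core) was found at 35.1% of the members' starts, 33.8% of the mitochondrial ones and 8.9% of all. CACGTG, the E-box bound by MYC, was found at 10.8%, 9.5% and 7.2% of these sets, and TATAAA at 9.5%, 6.8% and 13.6%. None of these 3 words holds another, and a match describes the sequence only.

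Total counts were 9280635 and 22411342 in WT replicates 1 and 2, and 10494542 and 19073767 in CCL5-/- replicates 1 and 2. Rn45s, the ribosomal RNA precursor, took 58.44% and 50.03% of the counts in the replicate 1 libraries and 0.84% and 1.38% in the replicate 2 libraries. In WT replicates 1 and 2 there were 255 and 3976 Ccl5 reads, and CCL5-/- replicates 1 and 2 had 35 and 82. All 12 macrophage markers were detected, and they made up between 0.6809% and 1.173% of the counts outside Rn45s. The F4/80hi pair went against its labels, since Ccl5 stood at 15.7 FPKM in the library labelled WT and 145.0 FPKM in that labelled CCL5-/-, and each sample title names the other genotype. Its gene ratios also matched the replicate 1 libraries of F4/80low crosswise, with a median chi-square of 0.334 over 6677 genes. WT replicate 1 was matched by the F4/80hi library labelled CCL5-/-, and CCL5-/- replicate 1 by that labelled WT, so the F4/80hi values are counted as the same 2 libraries and not as further samples.

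Ribosomal protein reads made up a larger share of the libraries numbered 2 than of those numbered 1, in both genotypes. Outside Rn45s, the 82 members took 11.84% of the counts in WT replicate 1 (95% Wilson interval 11.811 to 11.876) and 18.95% in WT replicate 2 (18.935 to 18.968). In CCL5-/- they took 10.63% in replicate 1 (10.602 to 10.655) and 17.78% in replicate 2 (17.76 to 17.795). These intervals cover counting error only, and reads without molecular identifiers are not independent molecules. Both replicate 2 libraries lay above both replicate 1 libraries, while the 2 genotypes overlapped. In bulk RNA of this kind, fewer cells of a type and less RNA per cell cannot be told apart.

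By genotype the share was 15.4% ± 5.03 (SD, n = 2) in WT and 14.2% ± 5.05 (SD, n = 2) in CCL5-/-. The difference of -1.19 percentage points was smaller than the spread within either genotype, with p = 0.667 in a two-sided exact permutation test. By replicate number the share was 11.24% ± 0.86 (SD, n = 2) in the libraries numbered 1 and 18.36% ± 0.83 (SD, n = 2) in those numbered 2. That difference of 7.13 points gave p = 0.333 in the same exact test, the smallest p that 2 libraries against 2 can give.

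The choice of denominator changed the size of the gap between the replicate numbers but not its direction. As a share of all counts, Rn45s included, the members took 4.92% and 5.31% in the replicate 1 libraries and 18.79% and 17.53% in the replicate 2 libraries. Of the replicate 1 libraries, WT was thus the lower by this share, whereas it was the higher outside Rn45s. Lars2, a mitochondrial leucyl-tRNA synthetase gene, was the source of 8.93% and 4.284% of the counts outside Rn45s in the replicate 1 libraries of WT and CCL5-/-, and of 0.035% and 0.083% in the replicate 2 libraries. With Lars2 also left out, the members' shares were 13.0% and 11.1% in the replicate 1 libraries and 18.96% and 17.79% in the replicate 2 libraries.

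The shares of the large and small subunit classes within these reads moved little, while single members differed more, as described further on. Large subunit genes gave 49.22% and 51.85% of the member reads in WT replicates 1 and 2, and 50.58% and 50.52% in the CCL5-/- replicates. Small subunit genes ranged from 42.56% to 44.24% over the 4 libraries. The P-stalk genes gave 4.42% of member reads in WT replicate 2 and 5.39% to 5.65% in the other 3 libraries. The paralogs and other symbols gave 0.89% and 0.91% in the replicate 1 libraries and 1.17% and 1.26% in the replicate 2 libraries.

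**Figure D1:**
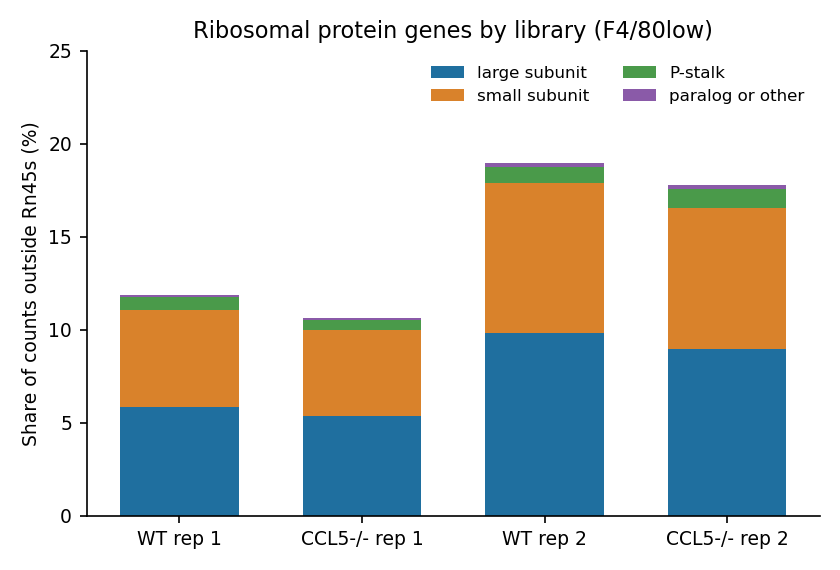
Bars give the share of counts outside Rn45s (%) taken by ribosomal protein genes in each F4/80low library, stacked by class (large subunit, small subunit, P-stalk, paralog or other). The bars reach 11.84% and 10.63% in the replicate 1 libraries of WT and CCL5-/- and 18.95% and 17.78% in the replicate 2 libraries.

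Loss of Ccl5 was not accompanied by a called difference in any ribosomal protein gene. Of the 82 members, 0 passed an adjusted p of 0.05 in edgeR's quasi-likelihood test of CCL5-/- against WT, beside 0% of the 12710 genes tested. No member had an unadjusted p under 0.05 in this test, and the lowest was 0.21, for Rpl34. Over all genes 41 had an unadjusted p under 0.05, and no gene passed the adjusted threshold, Ccl5 included. With 2 libraries per genotype that differ widely by replicate number, the lack of calls does not show a lack of difference. DESeq2 also called 0 members, with 0 at an unadjusted p under 0.05, where it called 0.00556% of 18000 genes. The authors' deposited table gave 0 members past an adjusted p of 0.05, with log2 fold changes from -0.338 (Rpl37a) to 0.167 (Rplp0) and a smallest adjusted p of 0.9999.

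The members' fitted log2 differences between the genotypes centred slightly below 0. Their median was -0.17, beside -0.01 for all genes tested, with 14 members above 0 and 68 below. The range ran from -0.75 (Rpl34) to 0.32 (Rplp0), and the members' standard errors ran from 0.39 to 0.95. This fit holds no term for replicate number, so its errors and p-values include the gap between the numbers. Within the pair numbered 1 the median was -0.19, with 63 members lower in CCL5-/-, and within the pair numbered 2 it was -0.10, with 54 lower. The direction of a single gene often differed between these pairs. In all, 38 members (46.3%) were lower in CCL5-/- in both pairs, beside 26.6% of all genes, and 3 (3.7%) were higher in both, beside 24.8%. The remaining 25 were lower in the pair numbered 1 and higher in the pair numbered 2, and 16 did the reverse.

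The median depended on which libraries were in the fit. Without WT replicate 2 it was 0.29 and without CCL5-/- replicate 1 it was 0.24, whereas without WT replicate 1 it was -0.43 and without CCL5-/- replicate 2 it was -0.72. Each of these fits compares unequal numbers of libraries from the 2 replicate numbers.

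For 8 members both CCL5-/- libraries lay below both WT libraries (9.8% of members, beside 8.24% of all genes), and for 0 members they lay above (beside 8.36%). The share that lay below was thus near that of all genes. These 8 were Rpl9, Rpl34, Rpl37a, Rpl41, Rps13, Rps15, Rps19 and Rps28. Rpl37a, a zinc-finger protein of the large subunit, had 1737 and 1193 CPM (counts scaled to a common library size by TMM factors) in WT replicates 1 and 2 and 920 and 1015 in the CCL5-/- replicates. Its genotypes did not overlap, but the log2 difference of -0.60 (SE 0.52) had an unadjusted edgeR p of 0.30. With replicate number as a term it was -0.57 (SE 0.28), with an unadjusted edgeR p of 0.057. No member had an unadjusted p under 0.05 in that edgeR fit. Rpl41, which encodes one of the shortest proteins known, had 2951 and 3376 CPM in WT and 1935 and 2526 in CCL5-/-, a log2 difference of -0.50 (SE 0.56). Rpl9 had 1276 and 1753 CPM in WT and 909 and 1198 in CCL5-/-, and its differences within the pairs were nearly equal at -0.49 and -0.55.

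Rps19 and Rps15, of the same 8, differed mainly in the pair numbered 1. Rps19, the small subunit protein most often mutated in Diamond-Blackfan anaemia, had 1730 and 1268 CPM in WT and 888 and 1257 in CCL5-/-, with differences of -0.96 in the pair numbered 1 and -0.01 in the pair numbered 2. Rps15, which sits in the head of the small subunit, had 2505 and 1828 CPM in WT and 1399 and 1702 in CCL5-/-, with differences of -0.84 and -0.10. Rpl17, a protein at the exit of the peptide tunnel whose genotypes overlapped, showed the opposite order with 962 and 2302 CPM in WT and 889 and 1192 in CCL5-/-, or -0.11 and -0.95. WT replicate 2 was the highest of the 4 libraries for Rpl17, and WT replicate 1 for Rps15 and Rps19.

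Of the P-stalk genes, Rplp0 and Rplp2 turned direction between the pairs. Rplp0, the scaffold of the stalk, had 1018 and 1475 CPM in WT and 965 and 2138 in CCL5-/-, with differences of -0.08 and 0.54 in the pairs numbered 1 and 2. Rplp2 had 583 and 699 CPM in WT and 448 and 948 in CCL5-/-, or -0.38 and 0.44. Rplp1 had 2835 and 3940 CPM in WT and 2080 and 3817 in CCL5-/-, or -0.45 and -0.05. Their median difference was -0.38 in the pair numbered 1 and 0.44 in the pair numbered 2, and their genotypes overlapped for all 3.

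GC content moved with these pair differences in opposite directions. Among the 81 members with an annotated coding transcript, Spearman's rho between GC content and the genotype difference was -0.39 in the pair numbered 1 and 0.38 in the pair numbered 2. Over all 11800 genes with a value it was -0.23 and 0.24. These are correlations across genes of the same libraries, a description with no test. The lowest GC tercile of members (27 genes, up to 49.1%) had medians of -0.11 and -0.30 in the pairs numbered 1 and 2, and the highest tercile (27 genes, from 53.1%) had -0.42 and -0.01. Its part in the genotype differences was not tested.

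**Figure D2:**
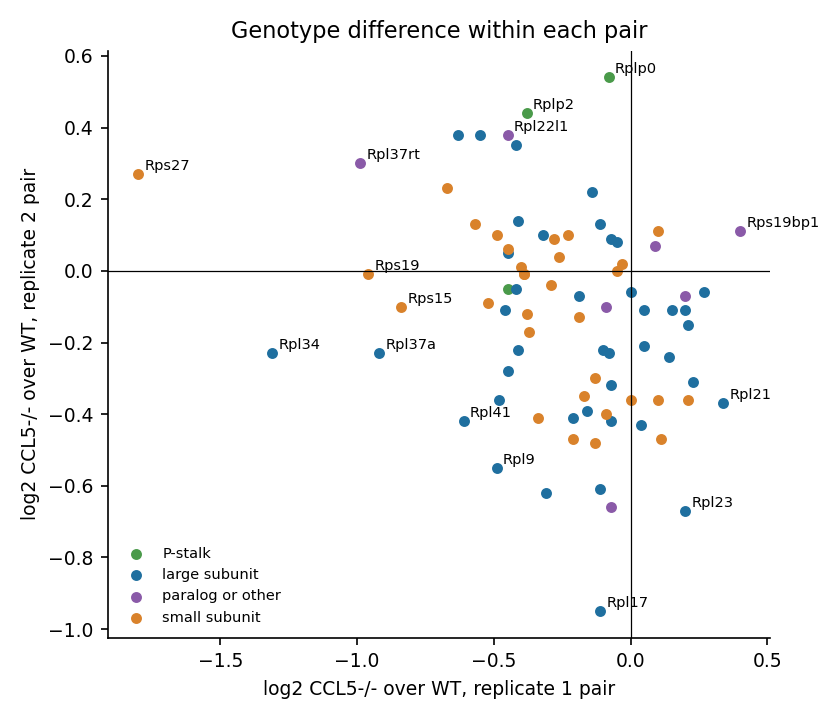
Each of the 82 points is a member, coloured by class. The horizontal axis gives the log2 difference CCL5-/- over WT in the pair numbered 1, and the vertical axis that in the pair numbered 2. The lower left holds 38 genes and the upper right 3, and Rplp0 and Rplp2 lie at the upper edge.

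By replicate number, many ribosomal protein genes differed, all in 1 direction. The test with genotype as a term called 45 of 82 members (54.9%), all 45 higher in the replicate 2 libraries, beside 13.9% of the 12710 genes called higher, 18% called lower and 31.8% called in either direction. The median log2 difference of the members was 0.81, beside 0 for all genes, and 29 members differed by 1 or more on the log2 scale. Of the 82, 79 lay above 0 and the 3 below were Rpl37a (-0.20), Rpl34 (-0.09) and Rps15 (-0.09). DESeq2 called 57 members, all higher, beside 6.97% of its 18000 genes called higher and 7.96% lower (14.9% in either direction). With totals outside Rn45s and no TMM factors 38 of 82 were called, and with offsets for transcript length, chosen after the data were seen, 25 of 81, with a median of 0.37.

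Both genotypes showed this difference. The median was 0.71 between the WT libraries, with 73 members higher in replicate 2, and 0.92 between the CCL5-/- libraries, with 82 higher. In both genotypes together 73 members (89.0%) were higher in replicate 2, beside 39.0% of all genes. For 70 members (85.4%) both replicate 2 libraries lay above both replicate 1 libraries, beside 34.2% of all genes, and for 0 members they lay below.

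Other properties of the libraries split by the same number. Total counts, the Rn45s share and the Lars2 share did so, and replication-dependent histone genes took 0.17% and 0.111% of the counts outside Rn45s in the replicate 1 libraries of WT and CCL5-/- and 0.017% in each replicate 2 library. The 13 neutrophil markers in the table summed to 0.5714% in WT replicate 1 and 0.1274% in CCL5-/- replicate 1, against 0.0822% and 0.0502% in the replicate 2 libraries. Macrophage markers summed to 0.6809% and 1.173% in WT replicates 1 and 2. In the CCL5-/- replicates they summed to 0.9269% and 0.7693%, so the sum did not split by number. Several single markers did, in both directions. Itgam, Csf1r, Mertk, Fcgr1 and Mrc1 were lower in both replicate 2 libraries than in either replicate 1 library, and C1qa, C1qb and C1qc were higher. Adgre1, Cd68, Lyz2 and Apoe overlapped. With 2 libraries of each number, these properties and the replicate number cannot be told apart.

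The members highest in replicate 2 came from both subunits. Rpl23a (chr11:78180932-78183584 in GRCm38), at the tunnel exit where factors meet the growing chain, had 846 and 979 CPM in the replicate 1 libraries of WT and CCL5-/- and 3632 and 3284 in the replicate 2 libraries. The fitted ratio was 3.79-fold (log2 1.92, SE 0.29, edgeR adjusted p = 0.00019), the largest of all members. Rps7 (chr12:28630854-28635953), a small subunit protein needed early in subunit assembly, had 686 and 733 CPM in replicate 1 and 2873 and 2242 in replicate 2, a ratio of 3.58. In both genes the 2 libraries of a number lay close together and the numbers did not overlap.

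Rpl22, a large subunit protein that binds RNA and is needed for T cell development, had 275 and 303 CPM in the replicate 1 libraries and 1076 and 911 in the replicate 2 libraries (log2 1.78, SE 0.26, edgeR adjusted p = 0.00017). Rpl36a had 614 and 573 CPM in replicate 1 and 2117 and 1812 in replicate 2 (log2 1.72). For both of these genes the lowest replicate 2 library exceeded the highest replicate 1 library more than 2-fold.

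The classes shared the direction. Of 41 large subunit members 24 were called higher (median 0.84), of 31 small subunit members 15 (median 0.71) and of the 3 P-stalk members 1, Rplp0 (log2 0.84, SE 0.28, edgeR adjusted p = 0.032). The other stalk genes, Rplp1 (0.68) and Rplp2 (0.67), did not pass, with edgeR adjusted p of 0.089 and 0.076. Rps27a, which is made as a fusion with ubiquitin, had 787 and 680 CPM in replicate 1 and 2067 and 1494 in replicate 2 (log2 1.26) and was called. Rps6, the small subunit target of S6 kinase, had 727 and 712 CPM in replicate 1 and 876 and 887 in replicate 2 (log2 0.29), and its adjusted p in edgeR was 0.40.

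At the other end, some members had a fitted difference by number near 0, with opposite directions in the genotypes. Rps15 had 2505 and 1399 CPM in the replicate 1 libraries of WT and CCL5-/- and 1828 and 1702 in the replicate 2 libraries. Its log2 difference, replicate 2 over 1, was -0.45 within WT and 0.28 within CCL5-/-. Rps13, with 445 and 339 CPM in replicate 1 and 400 and 398 in replicate 2, gave a fitted log2 difference of 0.04. Within WT it was -0.15 and within CCL5-/- 0.23. The numbers overlapped for both genes.

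**Figure D3:**
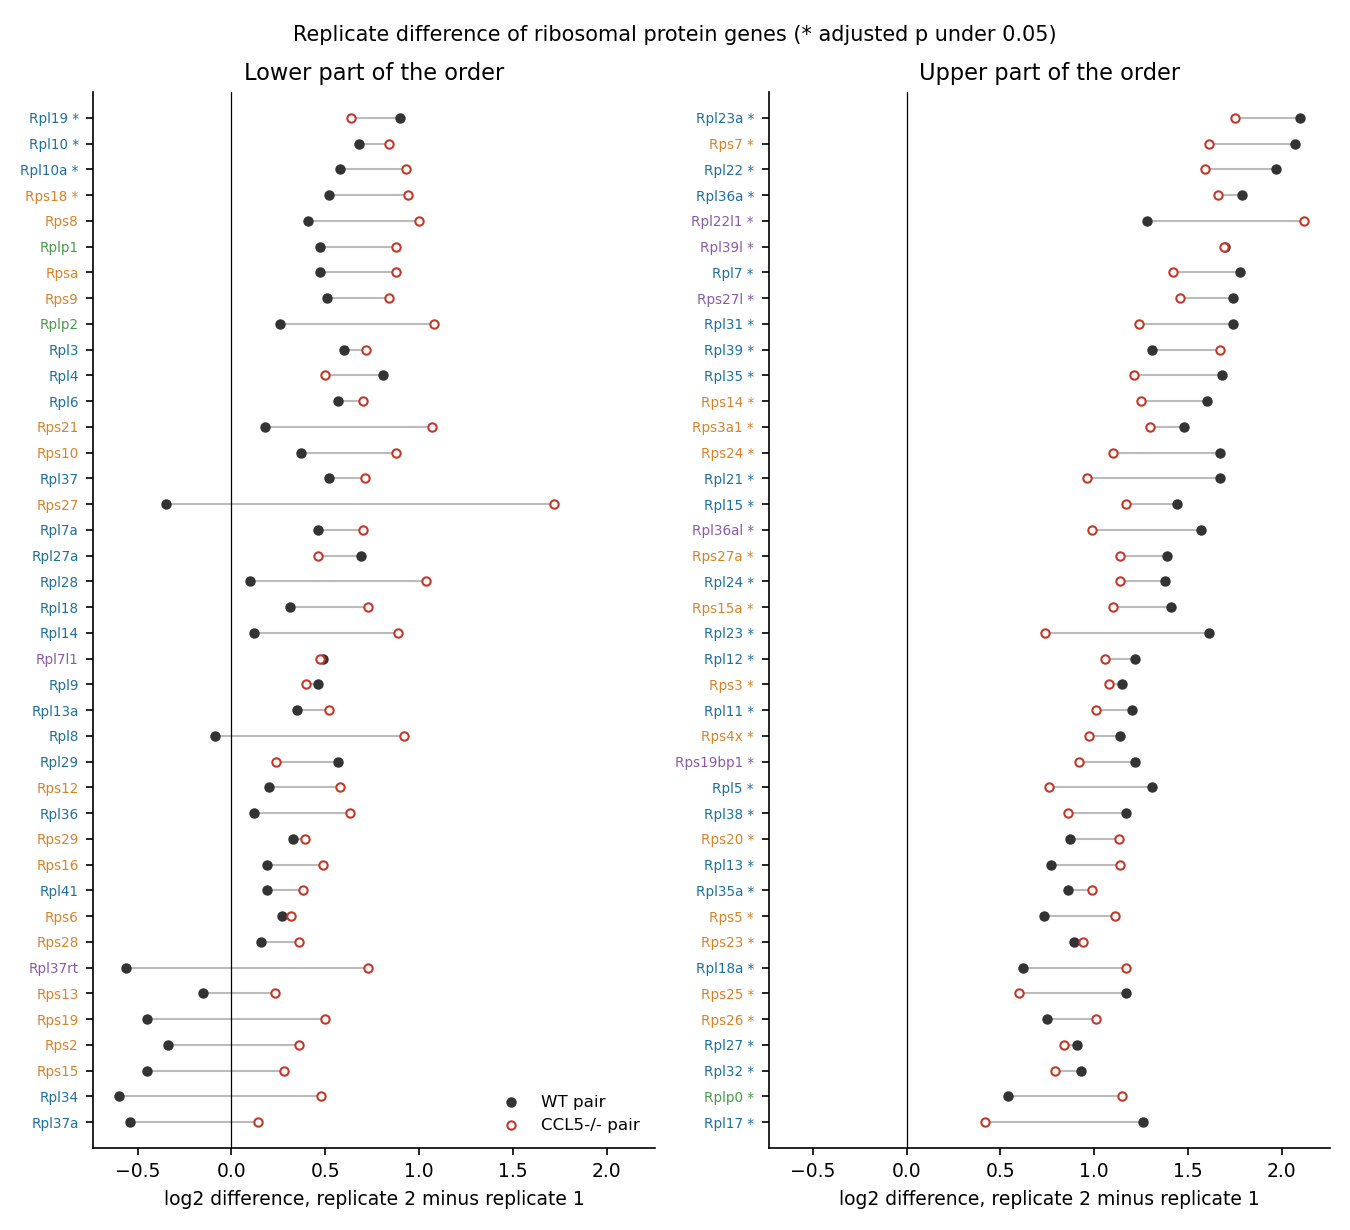
Each row is 1 of 80 members, ordered by its fitted difference. Points give the log2 difference replicate 2 minus replicate 1 within WT (filled) and within CCL5-/- (open), joined by a line. Names are coloured by class and stars mark genes with an adjusted p under 0.05, all in the right panel or at the top of the left one.

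The paralogs, which can stand in for a canonical protein or serve in certain tissues, were among the members with the widest gaps. Of the 7 paralogs and other symbols 5 were called higher in replicate 2, and the median over the 7 was 1.28. Rpl22l1, the paralog of Rpl22, had 165 and 121 CPM in replicate 1 and 401 and 524 in replicate 2 (log2 1.70, SE 0.27, edgeR adjusted p = 0.00030), close to the 1.78 of Rpl22 itself. Rpl39l, the paralog of Rpl39 known from male germ cells, had 73.2 and 68.8 CPM in replicate 1 and 237 and 221 in replicate 2 (log2 1.69), beside 1.49 for Rpl39. Rpl22l1 and Rpl39l thus differed about as much as their partners.

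Rps27l, a paralog of Rps27 that p53 can induce, had 78.2 and 90.1 CPM in replicate 1 and 262 and 249 in replicate 2 (log2 1.60). Rpl36al had 176 and 167 CPM in replicate 1 and 524 and 332 in replicate 2 (log2 1.28), beside 1.72 for Rpl36a. Rps19bp1, which encodes a protein that binds Rps19 and is no ribosomal protein, had 11.3 and 15.0 CPM in replicate 1 and 26.4 and 28.4 in replicate 2 (log2 1.06). Rps19bp1 lost its call with length offsets (log2 0.52, edgeR adjusted p = 0.12). The remaining symbols were not called in the main test. Rpl7l1, which belongs to the Rpl7 family, gave 0.48 (edgeR adjusted p = 0.10) beside 1.60 for Rpl7, and was called with GC offsets (0.69, edgeR adjusted p = 0.0065). Rpl37rt, annotated as a transcribed processed pseudogene in GENCODE M21, gave 0.09 beside 0.62 for Rpl37.

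By genotype the paralogs stayed within the spread of the libraries. Rpl22l1 was lower in CCL5-/- in the pair numbered 1 (-0.45) and higher in the pair numbered 2 (0.38). Rpl39l differed by -0.09 and -0.10 in the pairs, and Rps19bp1 by 0.40 and 0.11. The 4 paralogs below the read minimum were Rps4l with 67 reads in all, Rpl3l, the striated muscle form of Rpl3, with 38, and Rpl10l and Rps27rt with 0 each. Of the 67 Rps4l reads 48 came from WT replicate 2, and the 38 reads of Rpl3l were spread over the libraries as 9, 17, 7 and 5 (WT 1, WT 2, CCL5-/- 1 and 2).

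Transcript length and GC content both moved with the replicate difference, in different gene sets. The members' transcripts are short, with a median of 799 bases (n = 81) against 2893 over the 11800 tested genes with a value. Over all genes, Spearman's rho between the replicate difference and length was -0.54, while among the members it was 0.09. GC content showed the reverse, with rho of 0.08 over all genes and -0.52 among the members. These correlations are across genes of the same 4 libraries and carry no test.

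Split by GC content, the lowest tercile of members had a median replicate difference of 1.18 with 22 of 27 called, and the highest tercile 0.67 with 10 of 27 called. Examples at the low end were Rpl22l1 (40.6% GC) with 1.70 and Rpl15 (43.2% GC) with 1.30, and at the high end Rpl36 (60.8% GC) with 0.38. Rpl35, at 56.7% GC, lay apart from this pattern with 1.45. With the length offsets, the 25 of 81 called higher stood beside 11.2% of genes. All 25 were among the 45. With offsets for GC content instead, also chosen after the data were seen, the median was 0.95 and 61 of 81 were called higher, beside 19.8% of genes.

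**Figure D4:**
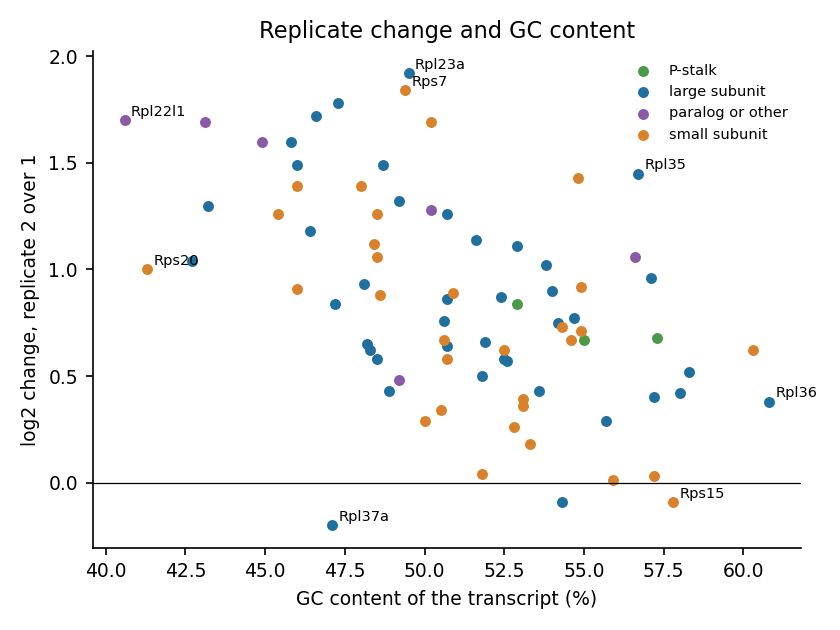
Each point is 1 of the 81 members with an annotated coding transcript, coloured by class. The horizontal axis gives the GC content of that transcript (%), and the vertical axis the fitted log2 difference replicate 2 over replicate 1. Genes of low GC content lie higher on the whole (rho = -0.52), and Rpl37a and Rps15 lie below 0.

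Members with and without a C-started pyrimidine run at a RefSeq start both centred above 0 in the replicate difference. The split rests on the sequence at the annotated start base, and start sites were not mapped in these cells. It therefore cannot separate TOP mRNAs from others, and the looser run near the start was met by 44.6% of the members' starts. The 13 members with a C-started pyrimidine run at a RefSeq start had a median log2 difference of 0.67, from 0.29 (Rps6) to 1.45 (Rpl35), and 6 were called. The 50 other members with a RefSeq start had a median of 0.80, from -0.20 to 1.84, and 28 were called. Of the windows printed above, Rpl35, Rpl15 and Rps15a gave 1.45, 1.30 and 1.26, and Rps6, Rpl14 and Rpl28 gave 0.29, 0.50 and 0.57, although all 6 begin with C and a run of at least 6 pyrimidines.

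Other genes of the translation machinery gave context. Of ribosomal proteins whose symbols fall outside the rule, Gnb2l1, the scaffold protein RACK1 on the small subunit, had 1534 and 1373 CPM in the replicate 1 libraries and 2401 and 2721 in the replicate 2 libraries (log2 0.82, called). Fau, the fusion that yields a small subunit protein, gave 0.16 and was not called. Of 17 translation factors and other mRNAs known for a TOP start, 7 were called higher in replicate 2 and 0 lower, with a median of 0.66. Of 77 mitochondrial ribosomal protein genes 28 were called higher and 0 lower (median 0.52), and of 28 ribosome assembly genes 14 higher and 2 lower (median 0.58).

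RNA polymerase I and its factors, which make the ribosomal RNA, had 6 of 17 tested genes called higher and 1 lower (median 0.52). Of 13 translation control genes, a list with Mtor and the 4E-binding proteins, 2 were called higher and 5 lower (median -0.49). Myc, on the same list, was 1 of the 2 called higher (0.72). The replicate counts of all 5 lists stand beside 13.9% of all genes called higher and 18% called lower. By genotype edgeR called 0 genes of these 5 lists, beside 0% of all genes, with 0 at an unadjusted p under 0.05, and DESeq2 also called 0. Their median genotype differences were 0.23 for ribosome assembly, 0.15 for translation control, 0.13 for RNA polymerase I, 0.05 for TOP mRNAs and -0.01 for mitochondrial ribosomal proteins, beside -0.17 for the members. Higher levels in CCL5-/- in both pairs were seen for 16 of the 28 assembly genes, and 0 were lower in both, beside 24.8% and 26.6% of all genes. Leaving out 1 library at a time, an alternative chosen after the data were seen, moved the assembly median between 0.01 and 0.59. It was near 0 without WT replicate 1 (0.02) and without CCL5-/- replicate 2 (0.01). Without WT replicate 2 it was 0.59 and without CCL5-/- replicate 1 it was 0.46. The medians of the other 4 lists took both signs, as that of the members did. Bop1, which acts in the maturation of the large subunit, was 1 of the 16, with 35.7 and 42.9 CPM in WT and 46.8 and 73.4 in CCL5-/-. Its log2 difference was 0.61 (SE 0.40) and its unadjusted edgeR p 0.18.

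Levels of different genes can be compared only per length, as FPKM, and these exist for the libraries labelled F4/80hi. The 75 canonical members (large subunit, small subunit and P-stalk) had a median of 1897 FPKM in the library labelled WT and 2217 in that labelled CCL5-/-. In the mean of these libraries their quartiles were 1343 and 2848 FPKM. The highest means were those of Rpl41 (10478 FPKM), Rplp1 (6595), Rps15 (5557), Rps27 (4950) and Rps12 (4538). The lowest were Rpl34 (34.5), Rpl22 (226), Rps15a (309), Rpl27 (660) and Rpl21 (760). Reads of the F4/80low replicate 1 libraries per FPKM were 40.14 for Rps15a, beside 18.65 for Rpl22 and 10.11 for Rpl21. The representative transcript of Rps15a has 5179 bases, beside a median of 799 for the members, and its low rank in FPKM is uncertain.

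Between the F4/80hi labels the members' log2 difference, CCL5-/- over WT on the log2(FPKM + 1) scale, had a median of 0.15, with 61 members above 0 and 20 below (81 have FPKM). It has no replicate and no test, and the sample titles would turn its sign. Rps15 stood at 4182 FPKM in the library labelled WT and 6932 in that labelled CCL5-/-, where the F4/80low replicate 1 libraries gave 2505 CPM in WT and 1399 in CCL5-/-. Rpl41 stood at 8604 and 12350 FPKM by label, against 2951 CPM in WT and 1935 in CCL5-/-. Here the library labelled CCL5-/- was the higher in FPKM and the WT library in CPM, and these are the libraries that matched crosswise.

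Reads and FPKM disagreed widely for the member Rps27 and for Rpl26 and Rpl30, which fell below the read minimum. Over the 81 members with a transcript, a median of 52.1% of the 50-base words of a member's transcript also occurred in transcripts of other genes, and for 43 members the figure was 50% or more. Rps27, with 98.6% of its words shared, had only 12 and 49 reads in WT and 5 and 53 in CCL5-/-, yet 2449 and 7452 FPKM in the libraries labelled WT and CCL5-/-. Rpl26 had 0 reads in all 4 libraries and 191 and 106 FPKM. Rpl30 had 2 and 14 reads in WT and 6 and 13 in CCL5-/-, and 125 and 135 FPKM.

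Rpl34 was low in both tables, with 27 and 93 reads in WT, 16 and 71 in CCL5-/-, and 35.7 and 33.3 FPKM. The symbol Rpl34-ps1 was listed at 4414 and 5175 FPKM and had 0 reads in the count table. How the authors' counting shared reads between near-identical copies is not known. The differences of Rps27 and Rpl34, the latter with the lowest genotype value of any member, are therefore uncertain. Near the read minimum, Rps27 (119 reads) and Rpl34 (207) lay just inside, and Rps4l (67), Rpl3l (38) and Rpl30 (35) just outside. The 7 symbols marked -ps added between 0.056% and 0.064% to the member reads.

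**Figure D5:**
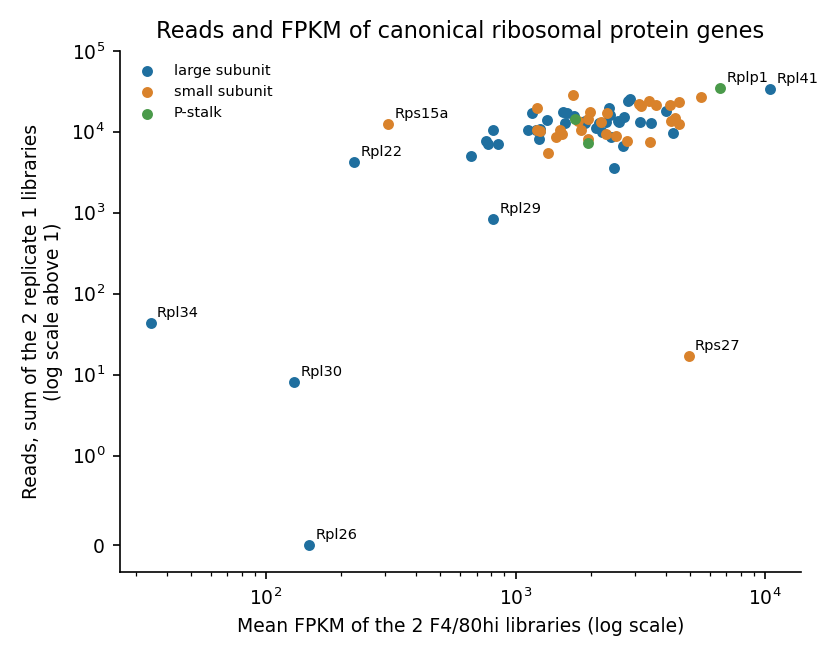
Each point is a canonical ribosomal protein gene with FPKM, with the mean FPKM of the libraries labelled F4/80hi on the horizontal axis (log scale) and the reads summed over the replicate 1 libraries of F4/80low on the vertical axis (log scale above 1), coloured by class. Most genes form 1 cloud, and Rps27, Rpl26, Rpl30 and Rpl34 lie far below it in reads. Rpl29 also lies below the cloud, with 1.03 reads per FPKM beside 1.25 for Rpl34.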

How the data were processed

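The F4/80low table deposited by the authors holds whole-number counts per gene. A deposited table of the authors' comparison holds counts divided by size factors (a normalised signal), the log2 fold change with its error, the test statistic as a score, and raw and adjusted p-values. The F4/80hi table deposited by the authors holds FPKM. The tools named, per the submitters' processing notes, are STAR and HTSeq, TopHat2 2.1.1 with Cufflinks 2.2.1, and DESeq2, besides cutadapt, FastQC and bcl2fastq 2.17.1.14. Which made which table, how reads of several loci were treated and whether strand was used are not given in the sources used here. Per the labels, RNA was extracted with Trizol and sequenced after a TruSeq preparation.

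Counts of all genes were tested with edgeR 4.0.16 (filterByExpr, TMM factors, robust quasi-likelihood F test, two-sided) in R 4.3.3, with Benjamini-Hochberg adjustment over 12710 genes at 0.05, by genotype alone and by replicate number with a genotype term. Standard errors are the log2 difference divided by the square root of F. CPM and within-pair differences use the TMM-scaled totals. DESeq2 1.42.0 and limma 3.58.1 were alternatives. FPKM differences use a pseudocount of 1. Transcript length, GC content and shared 50-base words come from 1 representative transcript per gene in GENCODE M21, and FPKM loci overlapped its GRCm38 gene bodies for 99.06% of 20873 shared symbols. The members and all lists were chosen with earlier results of these data known. Genes named are the paralogs and their partners, the P-stalk and Rps27a, the 5 with the smallest p or largest called change in each direction, those with most or fewest reads or FPKM and those nearest the read minimum. Rps6, Rps13, Rps28, Rpl14, Rpl15, Rpl28, Rpl35 and Rpl36 were named after their values were seen. A few genes enter the counts and medians but are not reported here by name.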

Additional observations from a re-analysis of the deposited data

How the results depend on the processing

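By genotype, 0 members were called in any of the 13 alternatives run, and at an unadjusted p under 0.05 there were 4 with DESeq2 and a replicate block and 2 each with limma-voom or GC offsets and a block. The alternative limited to members with 1000 or more reads only recounts the main fit, so its 0 calls were fixed in advance. The block on the replicate number gave 0 calls and a median of -0.19, and 10 of 12710 genes were called. Deviations of same-numbered libraries correlated at 0.692, but with 2 such pairs the numbers are not shown to pair the libraries. With totals outside Rn45s and no TMM the genotype median was -0.07, where all genes moved to 0.09. Leaving out 1 library at a time moved it between -0.72 and 0.29 and the share difference between -4.77 and 2.38 points.

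By replicate number, the same totals gave 38 calls and a median of 0.64, with all genes at -0.18. Length offsets gave 25 calls and a median of 0.37. DESeq2 called 57 members, and no filter gave 56. Leaving out 1 library moved the median between 0.71 and 0.96. With the genotype term no residual degrees of freedom were then left, and without that term 25 (without CCL5-/- replicate 1) to 45 members were called. The share difference was 13.05 points with Rn45s in the total. Of 131 alternative values with a test for 19 named members, 4 lost and 8 gained a call and 0 turned sign while called. The cause of these shifts was not tested. Members with under 1000 reads (Rps27, Rpl34) limit single-gene precision, and the depth behind FPKM is unknown.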
